A study of Mus musculus with 2 samples.

Results

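The 9 genes described here make, carry, remove or read retinoic acid. They were chosen by symbol, from the 32285 genes counted in the series, and all 9 were found. *Aldh1a2* encodes the enzyme that makes retinoic acid from retinaldehyde, *Crabp1* and *Crabp2* encode carriers of retinoic acid in the cytoplasm, and *Cyp26b1* encodes an enzyme that breaks it down. *Rara*, *Rarb* and *Rarg* encode the retinoic acid receptors, and *Rxra* and *Rxrg* encode retinoid X receptors, with which these form pairs on DNA.

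Single cell RNA sequencing (scRNA-seq) profiled the dorsal telencephalon of mouse embryos at E14.5, with a 10x 3' library made from each of 2 samples. Both were of WT genotype, untreated, with titles that carry the line name EoMltt3, and the study's methods give the strain as C57BL/6 J. The samples are called replicates 1 and 3 after their labels, and nothing in the labels gives the litter or sex, so they may be related. There was no second condition, so the comparisons are between cell classes of the same libraries, and p-values measure the spread between these 2 samples only.

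Retinoic acid is a small lipid made from vitamin A that passes between cells. In the nucleus it binds pairs of retinoic acid and retinoid X receptors that sit on repeats of a short DNA half-site, and the bound pair changes transcription of the gene nearby. Cells that hold the synthesis enzyme act as sources, and cells that hold the degrading enzyme limit how far the signal reaches. In the embryonic forebrain the meninges, the connective tissue sheets that cover the brain, are a known source of retinoic acid, and the striatum is known for retinoic acid receptor expression.

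*Rarb* is itself known as a target of retinoic acid, so the promoters of the genes were searched for direct repeats of the receptor half-site. The half-site was taken as AGGTCA, with AGTTCA as a second form and GGTTCA as another, and these were combined in all pairs with 1, 2 or 5 bases between them, which made 27 patterns, read on both strands and without regard to overlap. RefSeq gave 14 promoter windows of 300 bases (250 before and 50 after an annotated start, build GRCm38.p6) for 8 of the 9 genes, with none for *Crabp2*. Only the *Rarb* window held one of the patterns, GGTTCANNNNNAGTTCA, which lay 53 to 37 bases before the start and was found in 0.00609% of all 32851 windows. Any of the 27 patterns was found in 0.371% of all windows. That *Rarb* is a target was known before the patterns were set, so its match is a description and no test. The *Rarb* window (chr14:16575427-16575726, minus strand) is shown because it holds the repeat, with the match in capitals, and the *Aldh1a2* window (chr9:71215539-71215838, plus strand), in which none of the 27 patterns was found, is shown as that of the enzyme on which the cell classes differed most.
*Rarb*: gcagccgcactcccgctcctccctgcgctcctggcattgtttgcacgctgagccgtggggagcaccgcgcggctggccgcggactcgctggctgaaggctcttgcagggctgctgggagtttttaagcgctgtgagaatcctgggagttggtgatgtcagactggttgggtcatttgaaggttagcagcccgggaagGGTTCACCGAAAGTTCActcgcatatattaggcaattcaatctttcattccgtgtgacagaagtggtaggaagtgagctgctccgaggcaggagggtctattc
*Aldh1a2*: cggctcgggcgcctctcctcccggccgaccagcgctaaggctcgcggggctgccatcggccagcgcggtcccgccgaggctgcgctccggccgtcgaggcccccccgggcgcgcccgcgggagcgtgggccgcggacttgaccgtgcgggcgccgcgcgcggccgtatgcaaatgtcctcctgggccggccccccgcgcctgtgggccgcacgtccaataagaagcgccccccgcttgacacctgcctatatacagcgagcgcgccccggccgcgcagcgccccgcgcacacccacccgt

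Replicate 1 held 6163 cell barcodes and 64182006 unique molecular identifiers (UMIs, each marking 1 captured RNA molecule), and replicate 3 held 8870 barcodes and 93295807 UMIs. The libraries shared 23 barcodes, 0.373% and 0.259% of their own. After filters 12003 cells were kept in 25 clusters, which were named from marker genes and are called "-like". Meningeal-like cells numbered 44 in replicate 1 and 130 in replicate 3, and all 10 meningeal markers had UMIs in both, with a summed level of 6904 and 6925 UMIs per 1000000 UMIs of the class (CPM). The replicates were not alike in their GABAergic cells: the other GABAergic-like class, whose markers did not decide between the caudal and lateral eminences, held 448 cells in replicate 1 and 29 in replicate 3. Values that rest on that class are given for replicate 1 with this in mind.

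*Aldh1a2* (ENSMUSG00000013584, chr9:71215789-71296243) was found in meningeal-like cells and almost nowhere else. It had 207 UMIs in replicate 1 and 268 in replicate 3 there, a level of 292 and 160.4 CPM (226 ± 92.9, SD, n = 2). Those UMIs were 99.5% and 95.04% of all its UMIs in the kept cells. The next class in order, pericyte-like cells, had 0 and 1 UMIs, radial glia-like (RGC-like) cells 0 and 6, intermediate progenitor-like (IPC-like) cells 1 and 1, and projection neuron-like cells 0 and 2. In MGE interneuron-like, other GABAergic-like, Cajal-Retzius-like and red blood cell-like cells it had no UMI. The levels of these 8 classes lay below both meningeal values, and most did not differ from their neighbours beyond the range of the replicates.

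RNA set free from one cell type keeps the ratio of that type's genes wherever it is captured, so the genes were also set against the meningeal markers in other classes. In meningeal-like cells *Aldh1a2* had 42.3 and 23.2 UMIs for each 1000 UMIs of the 10 meningeal markers, in replicates 1 and 3. In RGC-like cells the ratio was 0 in replicate 1, beside 84 marker UMIs, and 21.1 in replicate 3, from 6 UMIs. IPC-like cells were at 71.4 and 27.0, from 1 UMI in each replicate. Projection neuron-like cells were at 0 and 7.17, from 0 and 2 UMIs. The ratios thus lay on both sides of the meningeal ones, and where these few UMIs came from was not tested. *Rarb* stood at 48.2 and 43.6 in meningeal-like cells but at 99.7 and 112 in pericyte-like cells, and *Crabp1* at 7.35 and 13.3 in meningeal-like but at 2366 and 5219 in projection neuron-like cells. The meningeal markers themselves stood at 684 and 912 CPM in pericyte-like cells, against 8.69 and 13.9 in RGC-like cells. The ratio in pericyte-like cells is thus not one to free RNA alone. Where the *Rarb* and *Crabp1* UMIs of these classes came from was not tested.

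With every cell thinned to 3000 UMIs, *Aldh1a2* had a UMI in 45.5% of meningeal-like cells in replicate 1 (31.7 to 59.9, 95% interval by Wilson's method) and in 28.9% in replicate 3 (21.8 to 37.3). The unthinned shares were 81.8% and 56.9%. Red blood cell-like cells, which should lack the gene, gave 0 of 47 and 0 of 60 thinned cells, which allows up to 6.38% and 5%, and projection neuron-like cells gave 0% and 0.0300%. Intervals and limits cover counting error only. The median depths were 14618 and 11588 UMIs in meningeal-like, and 5303.5 and 4309 in red blood cell-like cells.

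Most of the 9 genes were higher in the meninges than in the progenitors beneath them. Between meningeal-like and RGC-like cells, *Aldh1a2*, *Rarb*, *Crabp1*, *Crabp2*, *Rarg*, *Cyp26b1* and *Rara* were higher in the meninges and none was lower. Of all 12968 genes tested, 48.3% were called in this comparison, against 7 of the 9 genes here. The 7 include *Cyp26b1*, with 11 meningeal UMIs. It passed the filter on low counts only through replicate 1 of the meninges and of the other GABAergic-like class. Its call is a description only. *Aldh1a2* was higher by 8.83 on the log2 scale (SE 0.43, adjusted p = 1.24e-09), and by 9.96 and 8.10 in replicates 1 and 3 taken alone. All adjusted p-values, unless DESeq2 is named, are Benjamini-Hochberg values over the 12968 genes from edgeR's quasi-likelihood fit. The median log2 fold change of the 9 genes was 3.19, or 3.93 without *Rxrg*, which had 0 meningeal UMIs and 36 in RGC-like cells, and that of all genes was -0.08. *Rxra* was at 9.87 and 8.38 CPM in the meninges and at 3.62 and 4.16 in RGC-like cells, and did not pass (log2 1.15, adjusted p = 0.0888). Without the other GABAergic-like sums in the fit, its adjusted p was 0.0211.

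**Figure D1:**
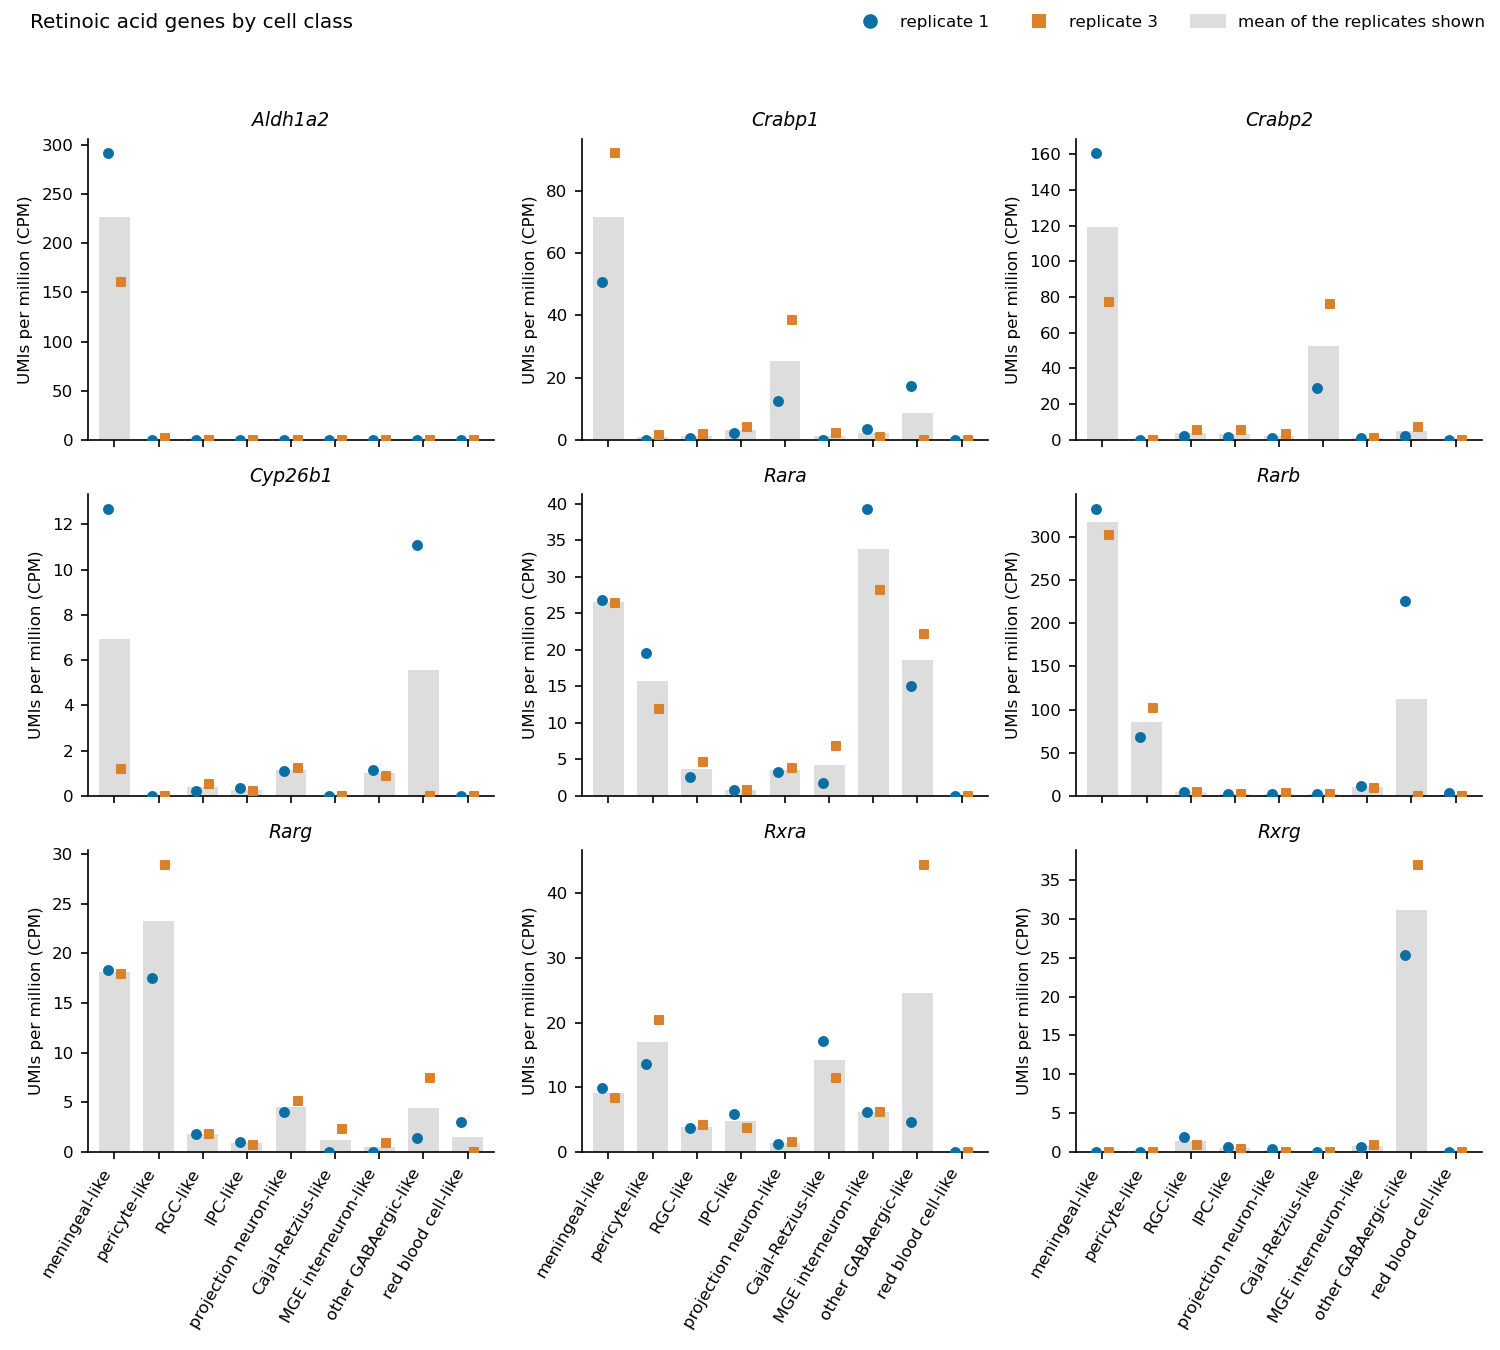
Level of each gene (CPM, linear axes of different range) in the 9 classes with 20 or more cells in both replicates. Points are replicates and bars their mean (n = 2). *Aldh1a2* stands at 292 and 160.4 CPM in meningeal-like cells and at 1.70 CPM or less in the other 8 classes.

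*Crabp2* (ENSMUSG00000004885, chr3:87948693-87953372), the carrier that hands retinoic acid to its receptors in the nucleus, had its highest levels in the meninges and in Cajal-Retzius-like cells, the reelin-producing neurons of the cortical surface. Its levels were 161 and 77.2 CPM in meningeal-like cells of replicates 1 and 3 (119 ± 59.1, SD, n = 2) and 29.1 and 76.2 CPM in Cajal-Retzius-like cells (52.7 ± 33.3, SD, n = 2). The replicate values of these classes did not overlap, though by a narrow margin. RGC-like cells were at 2.17 and 5.73 CPM, IPC-like at 1.69 and 5.35, projection neuron-like at 1.34 and 3.44, and MGE interneuron-like at 1.12 and 0.882, with the first 3 overlapping. Pericyte-like cells had no UMI. *Crabp2* was higher in meningeal-like than in RGC-like cells by 4.67 (log2, SE 0.52, adjusted p = 2.25e-06), which was 6.08 in replicate 1 and 3.70 in replicate 3 taken alone, and at least 37.4-fold higher than in pericyte-like cells, with 3 counts over that class as its floor (adjusted p = 0.00063). It was higher in Cajal-Retzius-like than in projection neuron-like cells by 4.17 (log2, SE 0.58, adjusted p = 5.75e-05), and by 3.998 and 4.15 in the replicates taken apart.

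*Crabp1* (ENSMUSG00000032291, chr9:54764748-54773110), the carrier known for holding retinoic acid in the cytoplasm, was high in the meninges and in a part of the projection neurons, and in replicate 1 also in the other GABAergic-like class. Meningeal-like cells were at 50.8 and 92.2 CPM (71.5 ± 29.3, SD, n = 2) and projection neuron-like cells at 12.4 and 38.5 CPM (25.4 ± 18.5, SD, n = 2). The other GABAergic-like class, next in order, had 48 UMIs (17.2 CPM) in replicate 1, above the projection neuron level of that library, and none in replicate 3. Because of their number, projection neuron-like cells held 78.6% and 85.1% of its UMIs. RGC-like cells were at 0.724 and 1.76 CPM, IPC-like at 2.36 and 4.01, MGE interneuron-like at 3.37 and 0.882, and Cajal-Retzius-like at 0 and 2.28. The IPC-like values lay above both RGC-like and both Cajal-Retzius-like values, while the MGE interneuron-like range overlapped with all 3. The difference of RGC-like from IPC-like cells did not pass (log2 -1.12, SE 0.61, adjusted p = 0.176) but did with the replicate as a block (adjusted p = 0.0339). *Crabp1* was lower in RGC-like than in projection neuron-like cells (log2 -4.10, SE 0.50, adjusted p = 1.97e-06), and also lower in MGE interneuron-like cells (log2 -3.32, SE 0.80, adjusted p = 0.00472), by -1.85 in replicate 1 and -5.12 in replicate 3 taken alone. In Cajal-Retzius-like cells, with 2 UMIs in all, projection neurons were 19.2-fold higher (95% exact counting interval 5.30 to 158, adjusted p = 0.0121). Against pericyte-like cells, which had 1 UMI, the meninges were 87.8-fold higher (15.6 to 3487, adjusted p = 0.00202).

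Within the 8 projection neuron-like clusters, *Crabp1* peaked in the one led by *Crym* and *Slit3*. There it stood at 58.2 CPM in replicate 1 (260 UMIs in 271 cells) and 133 CPM in replicate 3 (803 UMIs in 400 cells). The other 7 clusters ranged from 0 to 9.43 CPM in replicate 1 and from 1.58 to 39.4 CPM in replicate 3. *Crabp1* was higher in replicate 3 than in replicate 1 in 8 of 8 of these clusters. *Rarg* was spread more widely over the same clusters, with 6.49 and 5.64 CPM in the *Crym*, *Slit3* cluster, 5.55 and 7.84 CPM in the cluster led by *Hs3st4* and *Rgs6*, 5.76 and 6.66 in that led by *Cdh12* and *Inhba*, and 0.325 and 1.22 in that led by *Itga4* and *Slc17a6*, whose top genes include *Neurod1*, a gene of young neurons. These clusters were made without the genes described here, but *Crabp1* was itself among the 10 leading genes of the *Crym*, *Slit3* cluster, and no test was made between them.

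**Figure D2:**
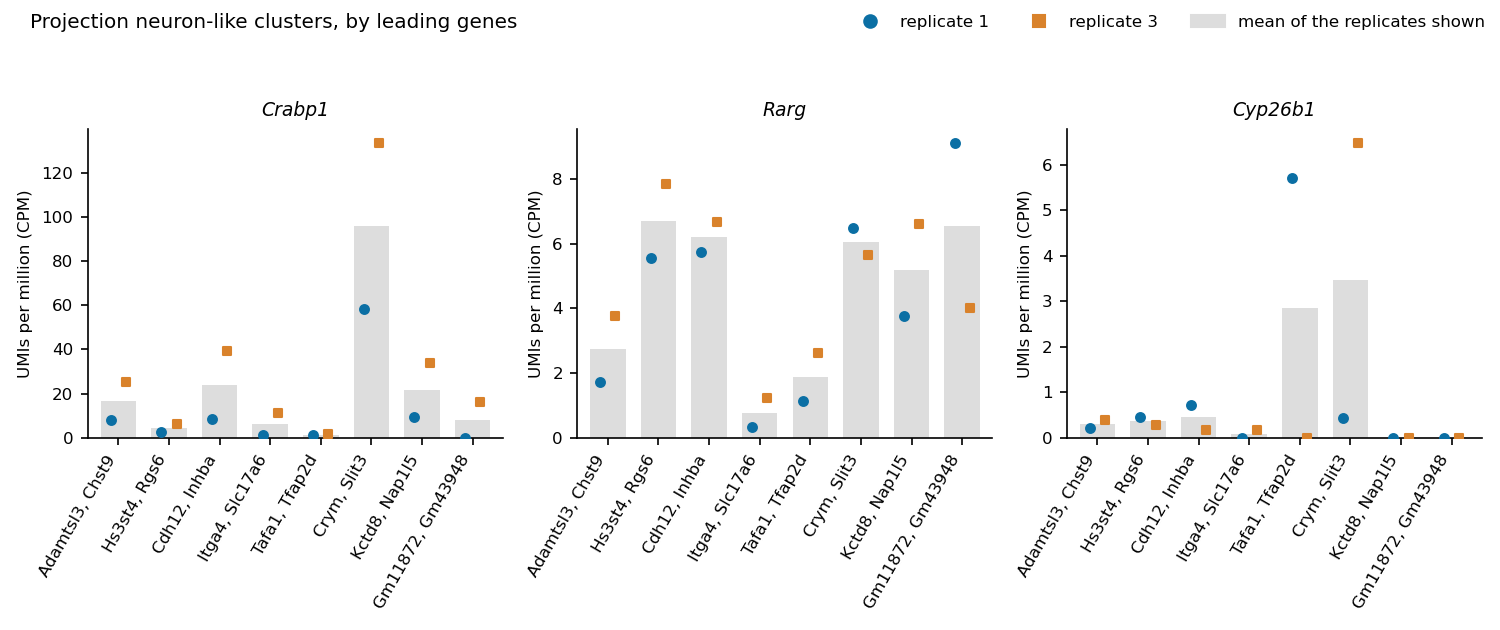
Level of *Crabp1*, *Rarg* and *Cyp26b1* (CPM, linear axes of different range) in the 8 projection neuron-like clusters, each named by its 2 leading genes. Points are replicates and bars their mean, and the *Crym*, *Slit3* cluster holds the highest *Crabp1* level in both replicates (58.2 and 133 CPM). The *Rarg* value of 9.10 CPM in the last cluster is 1 UMI in 29 cells.

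*Cyp26b1* (ENSMUSG00000063415, chr6:84571414-84593908), the degrading enzyme, was sparse, with 83 UMIs in replicate 1 and 64 in replicate 3 over all kept cells. Meningeal-like cells had 9 UMIs in replicate 1 and 2 in replicate 3 (12.7 and 1.20 CPM), and the 9 came from 4 cells. The other GABAergic-like class had 31 UMIs in 14 cells of replicate 1 (11.1 CPM), 37.3% of the *Cyp26b1* UMIs of that library and second in level to the meninges, and none in replicate 3. Its *Slit3*, *Six3* subcluster, described with *Rarb*, held much of this, at 42.6 CPM from 22 UMIs. Projection neuron-like cells were at 1.08 and 1.22 CPM, but its UMIs there came from different clusters. In replicate 3, 39 of the 46 lay in the *Crym*, *Slit3* cluster, in 11 cells, 1 of which held 12, and in replicate 1, 25 of the 36 lay in the cluster led by *Tafa1* and *Tfap2d*, in 13 cells. RGC-like cells were at 0.207 and 0.539 CPM and IPC-like cells at 0.337 and 0.206, which overlap. Pericyte-like, Cajal-Retzius-like and red blood cell-like cells had none. The meninges were higher than RGC-like cells (log2 2.95, SE 0.79, adjusted p = 0.0062), a difference that was 4.72 in replicate 1 and 0.85 in replicate 3 taken alone. *Cyp26b1* passed the filter on low counts only through its replicate 1 levels in the meninges and the other GABAergic-like class. Without the sums of the latter it was not tested, so this call is a description only. The difference from projection neurons in RGC-like cells was -1.15 (log2, adjusted p = 0.0546), and passed with the replicate as a block (adjusted p = 0.0464).

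*Rarb* (ENSMUSG00000017491, chr14:16430839-17082331) is the receptor gene with the repeat shown above. The window with the repeat lies at an annotated start inside the gene, and which start these cells used was not tested. *Rarb* was high in the meninges, in pericytes and in a set of GABAergic cells. It stood at 333 and 302 CPM in meningeal-like cells (317 ± 21.6, SD, n = 2) and at 68.2 and 102 CPM in pericyte-like cells (85.2 ± 24.0, SD, n = 2). MGE interneuron-like cells were at 11.2 and 8.82 CPM and RGC-like cells at 4.66 and 4.80, each apart from its neighbours in the order. Projection neuron-like (2.27 and 2.83 CPM), IPC-like (2.36 and 1.95) and Cajal-Retzius-like cells (1.71 and 2.28) overlapped. After thinning, 70.5% and 62.5% of meningeal-like cells had a UMI of *Rarb*, against 0.712% and 0.690% of projection neuron-like and 2.13% and 0% of red blood cell-like cells. *Rarb* was higher in the meninges than in RGC-like cells by 6.004 (log2, SE 0.41, adjusted p = 2.19e-09) and than in pericyte-like cells by 1.92 (log2, SE 0.41, adjusted p = 0.00288), the latter not called by DESeq2 (adjusted p = 0.172). Of the 36 meningeal-like cells of replicate 1 with a UMI of *Aldh1a2*, all 36 also had one of *Rarb*, as did 68 of 74 in replicate 3, against 97.7% and 87.7% of all meningeal-like cells.

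The other GABAergic-like class had 630 *Rarb* UMIs in replicate 1 and none in the 29 cells of replicate 3. When all GABAergic cells were clustered again without the genes described here, 439 of their 650 *Rarb* UMIs in replicate 1 fell in a subcluster of 35 cells led by *Ebf1*, *Ikzf1* and *Isl1*, at 1902 CPM, with a UMI in 34 of the 35 cells and at most 36 in any cell. A further 157 fell in a subcluster of 97 cells led by *Slit3* and *Six3*, at 304 CPM, in 24 of its cells. In 10% or more of their cells these subclusters had 5 and 6 of the 9 markers of lateral eminence neurons, and 6 and 8 of the 8 GABAergic markers. Both held cells of replicate 1 only, so these levels have no replicate check. In MGE interneuron-like cells the level, though much lower, was above that of projection neurons (log2 1.84, SE 0.64, adjusted p = 0.035), a call that was lost with DESeq2 (adjusted p = 0.0922), with predicted doublets kept (0.216) and without the red blood cell-like sums (0.0555).

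*Rxrg* (ENSMUSG00000015843, chr1:167598362-167639623), the retinoid X receptor known from striatal neurons, was high in the same subclusters in replicate 1. It was highest in the other GABAergic-like class, with 71 UMIs in replicate 1 and 5 in replicate 3 (25.4 and 37.0 CPM). In replicate 1 the *Ebf1*, *Ikzf1* subcluster held 36 of those UMIs in 20 cells (156 CPM) and the *Slit3*, *Six3* subcluster 25 in 14 cells (48.5 CPM). Neither subcluster held a cell of replicate 3, so the 5 UMIs of that library lay in other cells of the class. That class had no *Rarb* UMI in replicate 3. RGC-like cells were at 1.86 and 0.881 CPM and MGE interneuron-like, IPC-like and projection neuron-like cells at 0.882 CPM or less. RGC-like cells overlapped with MGE interneuron-like cells but lay above IPC-like and projection neuron-like cells in both replicates. Meningeal-like, pericyte-like and Cajal-Retzius-like cells had no UMI. *Rxrg* was higher in RGC-like than in projection neuron-like cells by 1.68 (log2, SE 0.50, adjusted p = 0.0102), from 36 and 12 UMIs. DESeq2 did not call that difference (adjusted p = 0.0823). *Rxrg* passed the filter on low counts only through the other GABAergic-like class, where it was high. Without the sums of that class it was not tested, so this call is a description only.

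**Figure D3:**
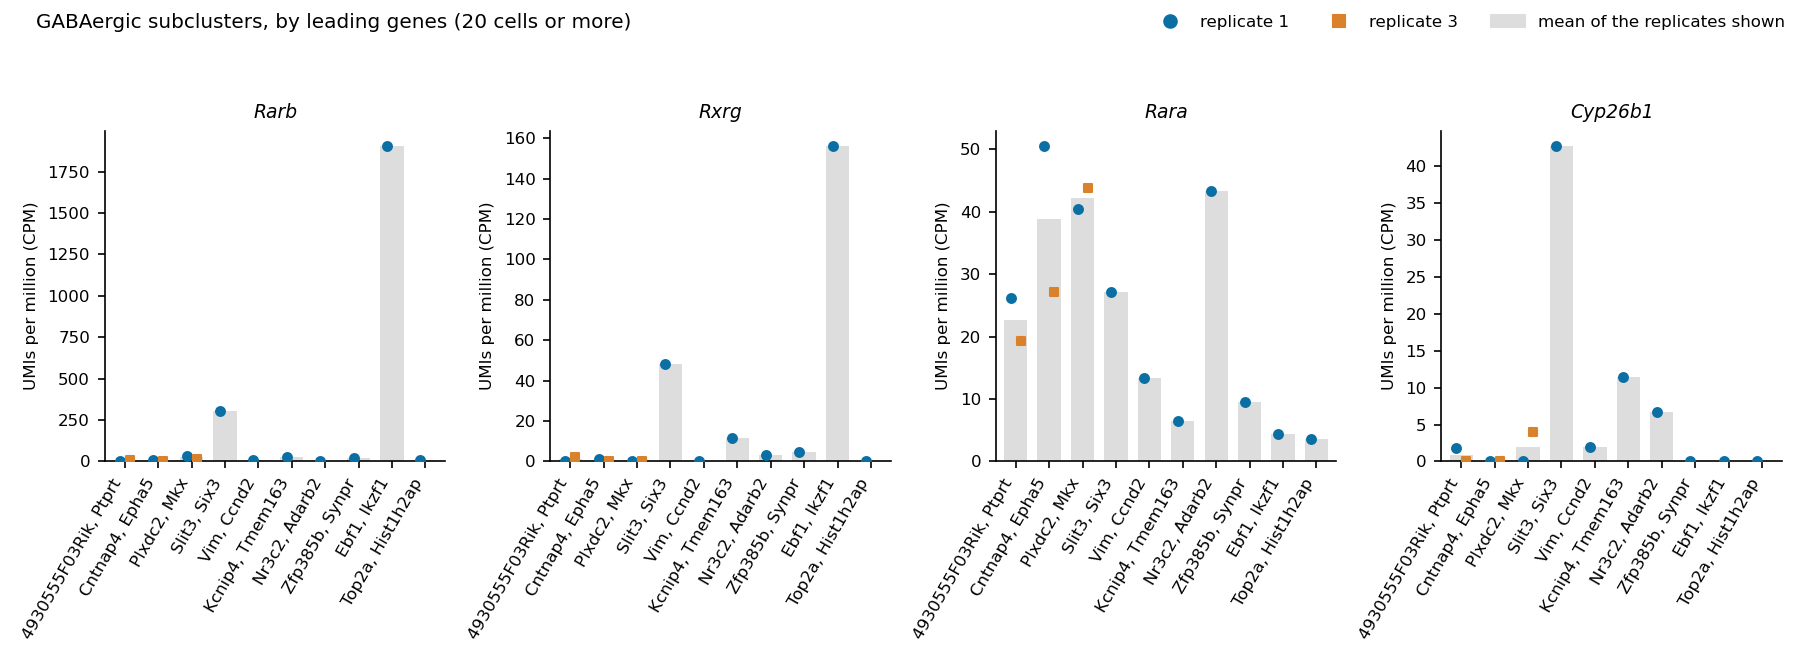
Level of *Rarb*, *Rxrg*, *Rara* and *Cyp26b1* (CPM, linear axes of different range) in subclusters of the GABAergic cells, each named by its 2 leading genes, for replicates with 20 or more cells in the subcluster. *Rarb* reaches 1902 CPM and *Rxrg* 156 CPM in the *Ebf1*, *Ikzf1* subcluster, which holds 35 cells of replicate 1 and none of replicate 3.

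*Rara* (ENSMUSG00000037992, chr11:98927800-98974942) was highest in interneurons of the medial ganglionic eminence. It stood at 39.3 and 28.2 CPM in MGE interneuron-like cells (33.8 ± 7.83, SD, n = 2), from 70 and 32 UMIs, and at 26.8 and 26.3 CPM in meningeal-like cells. These values did not overlap, though by a narrow margin, and this pair of classes was not tested. Other GABAergic-like (15.02 and 22.2 CPM) and pericyte-like cells (19.5 and 11.9) overlapped with each other, as did Cajal-Retzius-like (1.71 and 6.83), RGC-like (2.59 and 4.65) and projection neuron-like cells (3.20 and 3.81). IPC-like cells were lowest among these, at 0.843 and 0.822 CPM. *Rara* was above its projection neuron level in MGE interneuron-like cells by 3.14 (log2, SE 0.29, adjusted p = 4.97e-07). It was the only one of the 9 genes called between RGC-like and IPC-like cells, higher in RGC-like cells by 1.85 (log2, SE 0.37, adjusted p = 0.00101). It was also higher in the meninges than in RGC-like cells (log2 2.74, SE 0.33, adjusted p = 3.34e-06). Within the GABAergic cells of replicate 1 it ranged from 26.2 to 50.5 CPM in the subclusters led by *4930555F03Rik*, *Cntnap4* and *Plxdc2*, and was at 4.33 CPM, 1 UMI, in the *Ebf1*, *Ikzf1* subcluster where *Rarb* was highest.

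*Rarg* (ENSMUSG00000001288, chr15:102234938-102257522) was highest in pericyte-like and meningeal-like cells. Its levels were 17.5 and 28.9 CPM in pericyte-like and 18.3 and 17.95 CPM in meningeal-like cells, which overlap. Projection neuron-like cells followed at 3.97 and 5.07 CPM and RGC-like cells were at 1.76 CPM in both replicates. IPC-like cells were at 1.01 and 0.720 CPM and MGE interneuron-like cells had 0 and 1 UMIs. *Rarg* was lower in RGC-like than in projection neuron-like cells (log2 -1.38, SE 0.31, adjusted p = 0.000983), the opposite direction to *Rxra* and *Rxrg*. Projection neurons were 13.3-fold higher than MGE interneuron-like cells with their 1 UMI (exact counting interval 2.37 to 526, adjusted p = 0.00574). That call was lost with the stricter filter on cells (adjusted p = 0.0909) and with doublets kept (0.0601).

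*Rxra* (ENSMUSG00000015846, chr2:27676445-27763319), the common partner of the retinoic acid receptors, was found in every class except red blood cell-like cells. It stood at 13.6 and 20.4 CPM in pericyte-like, 17.1 and 11.4 in Cajal-Retzius-like, 9.87 and 8.38 in meningeal-like and 6.17 in both replicates of MGE interneuron-like cells. Projection neuron-like cells were lowest, at 1.26 and 1.59 CPM. The other GABAergic-like class was at 4.65 CPM in replicate 1 (13 UMIs in 448 cells) and at 44.4 CPM in replicate 3 (6 UMIs in 29 cells). *Rxra* was higher than in projection neurons in 3 comparisons, those of Cajal-Retzius-like cells (log2 2.85, SE 0.57, adjusted p = 0.00138), MGE interneuron-like cells (log2 1.88, SE 0.56, adjusted p = 0.0168) and RGC-like cells (log2 1.16, SE 0.36, adjusted p = 0.0116), which share the projection neuron sums. The second was lost with doublets kept (adjusted p = 0.0516) and the third with DESeq2 (0.102).

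**Figure D4:**
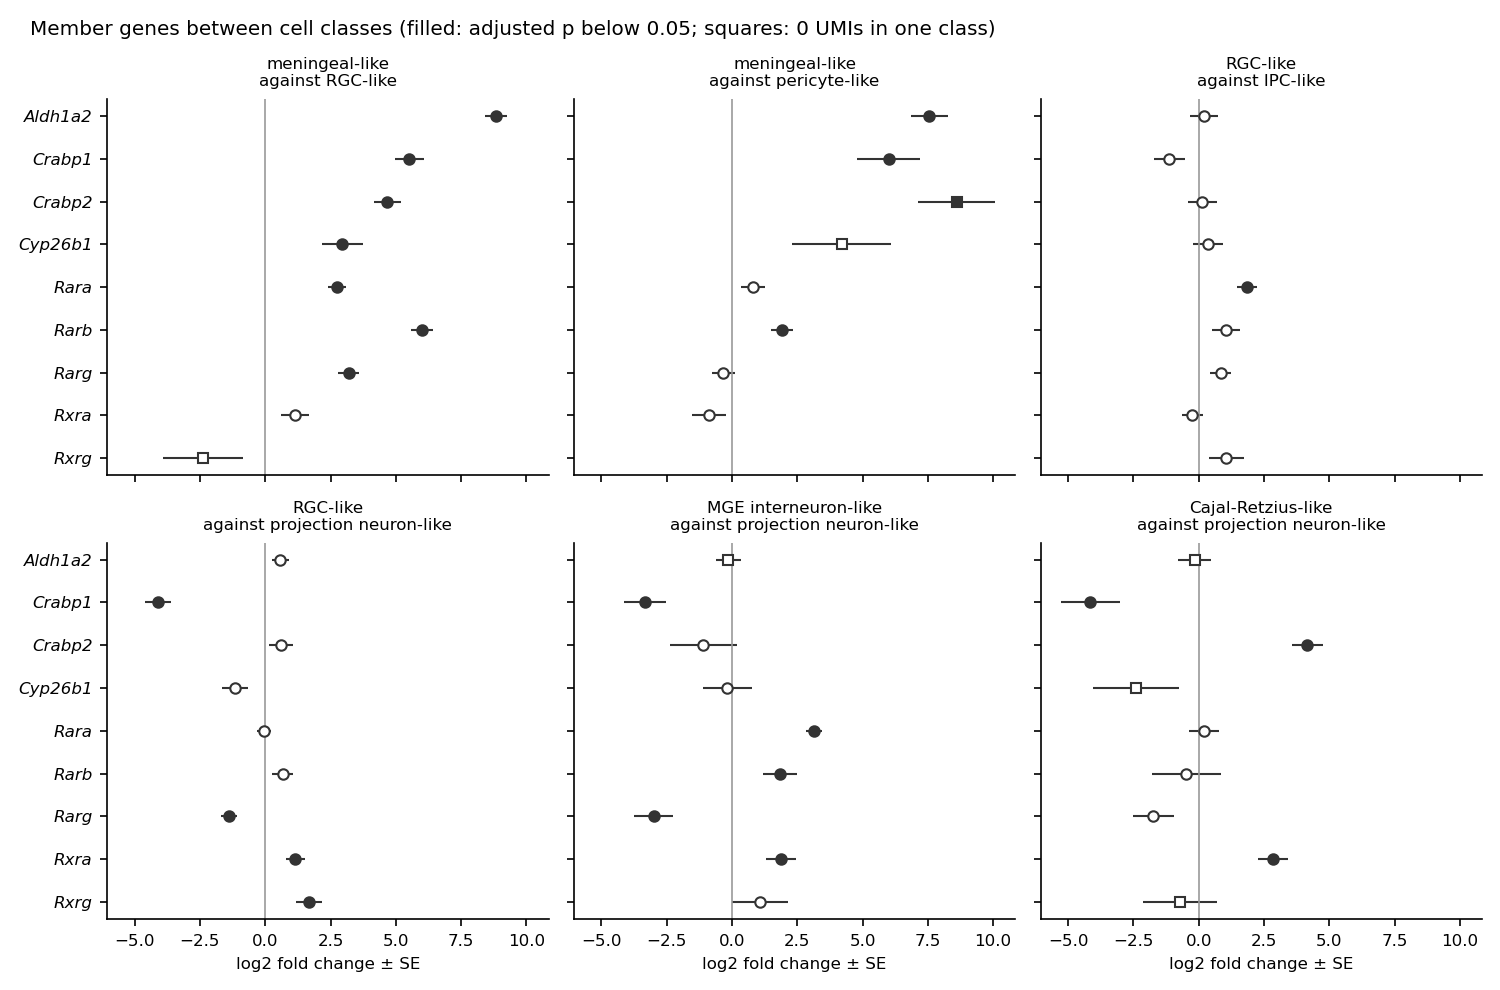
Log2 fold change (± SE, linear axis) of each gene between the 2 classes named above each panel, the first minus the second. Filled symbols had an adjusted p below 0.05, and squares mark genes with 0 UMIs in one class, whose fitted value depends on the prior count (*Rxrg*, at 0 in both classes of the second panel, is not drawn). In the first panel 7 of the 9 genes are filled, all to the right of 0. The filled *Cyp26b1* of that panel and the filled *Rxrg* of RGC-like against projection neuron-like cells are descriptions only.

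The counts of the 9 genes in the other comparisons are set beside the share of all genes called and beside medians of the log2 fold change, first of the 9 and then of all genes. Between meningeal-like and pericyte-like cells 4 of 9 were called, *Aldh1a2*, *Crabp1*, *Crabp2* and *Rarb*, all higher in the meninges, against 17.2% of all genes, and their median log2 fold change was 1.92 (1.36 with *Crabp2* and *Cyp26b1* at their bounds and *Rxrg* left out) against 0.09. Between RGC-like and IPC-like cells 1 of 9 was called against 33.7% of all genes, with medians of 0.35 and 0.05. Between RGC-like and projection neuron-like cells 4 of 9 were called, 2 in each direction, against 59.5%, with medians of 0.58 and -0.02. Those called higher include *Rxrg*, whose call is a description only for the reason given with that gene. Of MGE interneuron-like against projection neuron-like cells, 5 of 9 were called, 3 higher and 2 lower, against 31.8%, with medians of -0.14 (0.45 without *Aldh1a2*, which had no UMI in one class) and -0.04. Between Cajal-Retzius-like and projection neuron-like cells 3 of 9 were called, 2 higher and 1 lower, against 24.3%, with medians of -0.47 (-0.13 without the 3 genes at 0 in one class) and -0.06. All 24 calls had the same sign in both replicates, but the calls were made from these same replicates, so this is no separate check.

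Within the meninges the synthesis enzyme and the carriers were not spread evenly. Meningeal-like cells were clustered again without the genes described here and gave 4 subclusters. In the one led by *Ptgds*, *Trpm3* and *Fgfbp1* (13 and 20 cells), *Aldh1a2* was at 490 and 278 CPM and *Crabp2* at 358 and 250 CPM. In the largest, led by *Gm29478*, *Sorcs1* and *Nr1h3* (15 and 70 cells), *Aldh1a2* was at 152 and 90.1 CPM, *Crabp2* at 63.6 and 30.5 CPM, and *Crabp1* at 92.9 and 108 CPM. In the subcluster led by *Dgkb* and *Spon1* (9 and 27 cells), *Aldh1a2* was at 287 and 268 CPM while *Crabp1* was at 34.8 and 26.1 CPM. Dividing cells led by *Ube2c* (7 and 13 cells) were at 196 and 104 CPM for *Aldh1a2*. *Rarb* was even by comparison, from 260 to 373 CPM over the 4 subclusters and both replicates. All 9 *Cyp26b1* UMIs of replicate 1 fell in the *Ptgds* subcluster. The *Crabp2* values of the *Ptgds* subcluster lay above those of the other 3 in both replicates, and these values carry no test.

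**Figure D5:**
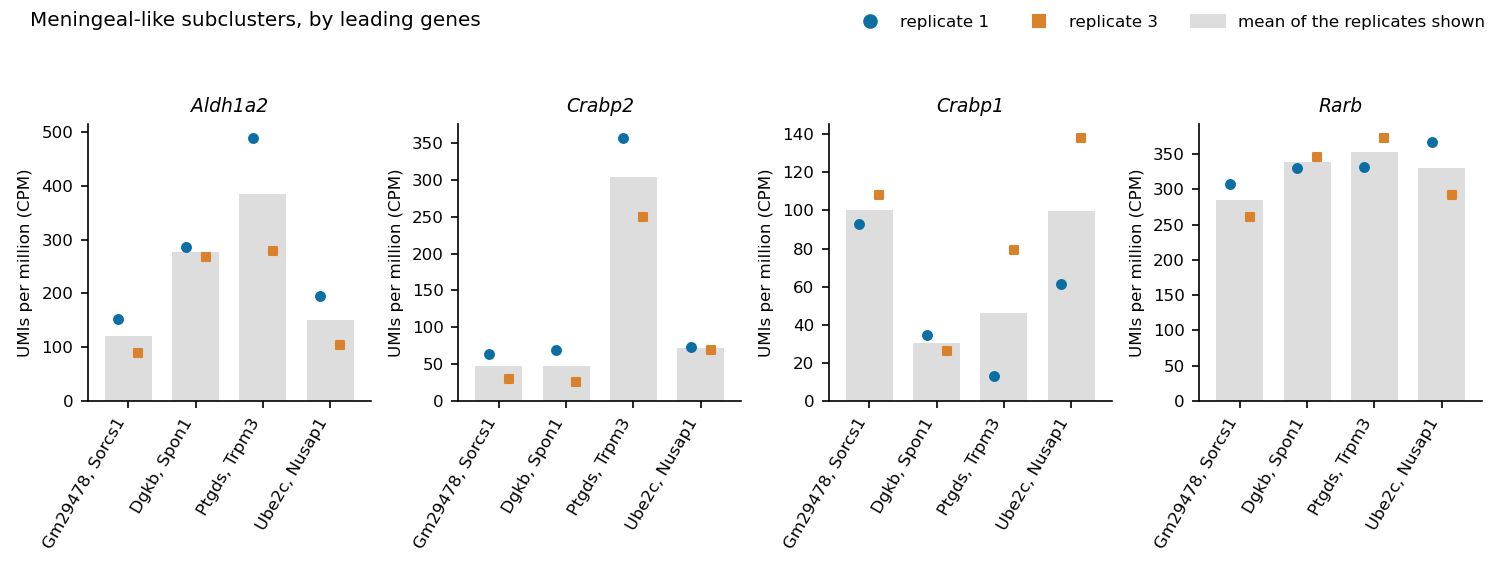
Level of *Aldh1a2*, *Crabp2*, *Crabp1* and *Rarb* (CPM, linear axes of different range) in the 4 subclusters of meningeal-like cells, each named by its 2 leading genes, with points for replicates and bars for their mean. *Crabp2* stands at 358 and 250 CPM in the *Ptgds*, *Trpm3* subcluster and at 26.1 to 73.5 CPM in the other 3.

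Cells with *Crabp2* in the meninges were mostly cells with *Aldh1a2*. In replicate 1, 23 of the 23 meningeal-like cells with a *Crabp2* UMI also had one of *Aldh1a2*, against 81.8% of all meningeal-like cells, and in replicate 3 it was 25 of 31 (80.6%) against 56.9%. For *Crabp1* it was 15 of 17 (88.2%) in replicate 1 and 31 of 57 (54.4%) in replicate 3. A deeper cell is more likely to show both genes, and this was not removed here.

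Other genes of the pathway, a list of 38 for retinol handling, degradation, receptors, cofactors and response, were read in the same fits, and 23 of them were tested. Between meningeal-like and RGC-like cells 11 were higher and 6 lower, beside 48.3% of all genes called, and the 6 became 4 with library sizes only and 3 with DESeq2. The largest differences were those of *Hic1* (155 UMIs against 0, at least 653-fold higher), *Rarres2* (log2 7.39, SE 0.53), *Stra6* (log2 7.23, SE 0.35) and *Tgm2* (log2 5.95, SE 0.48), of which *Stra6* encodes the receptor that takes up retinol. *Rdh10*, named for its role, whose enzyme makes the retinaldehyde that *Aldh1a2* uses, was at 185 and 198 CPM in the meninges and at 5.59 and 4.60 in RGC-like cells (log2 5.21, SE 0.23, adjusted p = 2.28e-11). The median of the 23 was -0.10, near that of all genes. Against pericyte-like cells 5 were higher and 1 lower, beside 17.2% of all genes called, with *Stra6* at least 27.1-fold higher, *Tgm2* 46.2-fold higher (exact counting interval 8.11 to 1844), *Rdh10* higher by 3.28 (SE 0.30) and *Zfp703* lower (log2 -2.93, SE 0.40), with a median of 0.07 against 0.09 for all genes. The other *Aldh1a* genes of the list were too sparse to test. *Aldh1a3* had 4 and 17 UMIs in meningeal-like cells (5.64 and 10.2 CPM) and *Aldh1a1* 0 and 3.

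The same pathway genes were read between the neural classes. Between RGC-like and IPC-like cells 4 pathway genes were higher and 4 lower, beside 33.7% of all genes called, *Stra6* (log2 -1.25, SE 0.37) and *Ncoa1* (-0.96, SE 0.20) among the lower and *Meis1* (1.12, SE 0.38) among the higher. That split was 2 and 4 with DESeq2. It was 2 and 3 with the stricter filter on cells, at resolution 0.5 and with another clustering seed. Between RGC-like and projection neuron-like cells 5 were higher and 4 lower, beside 59.5%, with *Dhrs3* (1.92, SE 0.26) and *Meis1* (1.70, SE 0.37) higher and *Stra6* lower (-1.71, SE 0.31). With the replicate block that split was 5 and 8. For MGE interneuron-like against projection neuron-like cells 5 were higher and 3 lower, beside 31.8%, with *Zfp703* lower (-2.26, SE 0.45) and *Tshz1* (1.68, SE 0.19) and *Ncoa3* (1.35, SE 0.22) higher. Between Cajal-Retzius-like and projection neuron-like cells 4 were higher and 5 lower, beside 24.3%, a split that was 6 and 4 with library sizes only and 7 and 4 with DESeq2, with *Dhrs3* (2.58, SE 0.46) and *Tshz1* (1.78, SE 0.21) higher and *Zfp703* (-2.88, SE 0.61) lower. The medians of the 23 in these 4 comparisons were 0.12, -0.09, 0.12 and -0.12, and the last was 0.17 without 3 genes at 0 in one class, 0.09 with library sizes only and 0.34 with DESeq2. The second was 0.07 with library sizes only and 0.02 with DESeq2.

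For each gene the genes with the most similar pattern were named by Pearson's r of log2(CPM + 1) over the 18 sums of 9 classes, which share libraries and classes and are given as a description only. For *Aldh1a2* these were *Olfml1*, *Six2* and *Lum* (r = 0.993, 0.991 and 0.9901), of which *Lum* is a meningeal marker. For *Rarb* they were *Tmem26*, *Gm48749* and *G0s2* (0.941, 0.938 and 0.915), and for *Crabp2* *Eya2*, *Chrd* and *Fibin* (0.922, 0.899 and 0.892). For *Crabp1* they were *Glt8d2*, *Cemip* and *Dpp4* (0.918, 0.850 and 0.850), and for *Rara* *Wls*, *Pid1* and *Runx2* (0.909, 0.902 and 0.901). *Rarg* was nearest to *Trpm4*, *Parm1* and *Emp3* (0.928, 0.891 and 0.874), *Rxra* to *Gm39090*, *Map3k1* and *B130024G19Rik* (0.945, 0.889 and 0.888), *Rxrg* to *Gm13944*, *Gsx2* and *Slc18a2* (0.935, 0.932 and 0.918), and *Cyp26b1* to *Itgbl1*, *Lrmda* and *Zim1* (0.843, 0.826 and 0.823).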

How the data were processed

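Cells of 2 WT samples were profiled with 10x Genomics 3' v3.1 libraries. The deposited values are raw UMI counts per gene and barcode, made by the authors with Cell Ranger 7.0.0, with mm10 as the build in the submitters' processing notes and with no normalization. The annotation release and the handling of intronic reads are not given in the sources used here, and reads shared by overlapping genes or paralogs could not be told apart.

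Barcodes below 1500 or above 60000 UMIs, or at 10% or more mitochondrial UMIs, were dropped (710 and 1387 in replicates 1 and 3). Doublets, scored against simulated pairs of cells, were removed at 0.8% per 1000 barcodes (304 and 629). Cells were clustered by Leiden (leidenalg 0.10.2) at resolution 1 on 30 components of 2000 variable genes without the genes described, and named from 129 markers of 16 classes. A marker was on above 0.5 of its scaled log2 level with UMIs in 10% of cells, and a name needed 3 markers. After the data were seen, red blood cell-like clusters were required to have 50% of UMIs from their markers, and GABAergic names within 0.1 of each other were merged. Also chosen then were the subclusters of GABAergic cells and of an unnamed cluster. Subclusters used 1000 variable genes, 15 components and resolution 0.5.

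UMIs were summed per class and replicate for classes with 20 or more cells in each. The 18 sums were fitted together with edgeR 4.0.16 (TMM, filterByExpr, quasi-likelihood test, Benjamini-Hochberg over 12968 genes, threshold 0.05, prior count 2), and the fit was tested on simulated data. The named genes were all 9, up to 4 pathway genes past the threshold with the largest fold change per comparison, and the 3 most similar genes, and some of these are not reported here. Genes and lists were chosen with earlier results of these data known. Of 9 comparisons planned 6 were made. Endothelial-like cells were too few (4 and 45), and no cluster was named lateral eminence neuron or cortical hem. Sums with the same number come from 1 library and so are paired, with correlations of their deviations between classes from -0.03 to 0.35. DESeq2 1.42.0 and other settings were alternatives. Gene positions and promoters are RefSeq's for GRCm38.p6, with the same primary sequence as mm10. The cell-cell communication analysis of the study was not repeated.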

Additional observations from a re-analysis of the deposited data

How the results depend on the processing

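Of the 54 results (9 genes in 6 comparisons), 24 were called. In the 12 alternatives with a test, 18 of the 24 were called in each alternative in which the gene was tested and 21 of the 30 others were called in none. The number of the 9 genes called between RGC-like and IPC-like cells was 1, and became 3 without the filter on low counts and 2 with the replicate block, the stricter filter on cells (3000 UMIs and 5% mitochondrial), no filter on cells, doublets kept and no other GABAergic-like sums, the last an alternative chosen after seeing the data. Under the block the gene added was *Crabp1* (adjusted p = 0.0339), which was also added without the filter on low counts (0.00398). *Rarb*, higher in RGC-like cells, was added without the filter on low counts (adjusted p = 0.0018) and without the other GABAergic-like sums (0.0035). It was also added with the stricter filter (0.0197) and with no filter on cells (0.0265). *Rarg* was added with doublets kept (0.0245). Between RGC-like and projection neuron-like cells the number was 4, and became 2 with DESeq2 and 8 without the filter on low counts. *Rarb* was called higher in RGC-like cells there without the filter on low counts (adjusted p = 0.00317). The same held with the stricter filter on cells (0.00416) and without the other GABAergic-like sums (0.00571). For MGE interneuron-like against projection neuron-like cells it was 5, and became 2 with doublets kept. The causes were not tested. The replicate block lost none of the 24 calls and added, beside *Crabp1*, that of *Cyp26b1* between RGC-like and projection neuron-like cells. Library sizes in place of TMM moved the median of all genes from -0.02 to 0.14 between RGC-like and projection neuron-like cells, and from -0.06 to 0.14 between Cajal-Retzius-like and projection neuron-like cells, where the split of called genes went from 1563 higher and 1591 lower to 2253 and 1077, and changed no call of the 9 genes. DESeq2 split the called genes into 3710 higher and 2347 lower between meningeal-like and RGC-like cells (3027 and 3232 with edgeR), 2591 and 1674 between MGE interneurons and projection neurons (1786 and 2344), and 1977 and 1273 between Cajal-Retzius-like cells and projection neurons, with medians over the genes it tested of 0.23, 0.39 and 0.34. The stricter filter left 7 of the 9 genes to test. So did leaving out the other GABAergic-like sums, after which *Rxrg* and *Cyp26b1* were not tested. With 1 replicate left out no test was possible and fold changes are values only: that of *Cyp26b1* between meningeal-like and RGC-like cells was 4.72 and 0.85. Fits with 0 to 2 UMIs in one class also moved: *Crabp1* and *Aldh1a2* between meningeal-like and pericyte-like cells (7.45 and 5.57, 9.96 and 6.36), *Crabp1* between Cajal-Retzius-like cells and projection neurons (-5.57 and -4.13) and *Rarg* between MGE interneurons and projection neurons (-3.99 and -2.26), for replicates 1 and 3. Depth limits *Cyp26b1* and *Rxrg* most, with 147 and 145 UMIs in all.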

Other observations

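Classes too small for the comparisons also held some of the genes. With predicted doublets kept, endothelial-like cells numbered 27 and 66, and had *Rara* at 32.6 and 18.8 CPM, *Rarg* at 10.9 and 11.5 CPM and *Rxra* at 7.26 and 12.5 CPM. They had no *Aldh1a2* UMI. *Cyp26b1* had 2 UMIs in each replicate there. An unnamed cluster led by *Ttr*, a choroid plexus gene, and by the hem gene *Rspo2* (20 and 131 cells) was clustered again. Its 25 cells led by *Kcne2*, *2900040C04Rik* and *Htr2c*, all of replicate 3, had 7 of 8 choroid plexus markers in 10% or more of the cells, and *Crabp2* at 37.4 CPM (21 UMIs). The other 3 subclusters of that cluster had *Crabp2* at 4.74 to 12.03 CPM in replicate 3.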
